A study of Homo sapiens with 20 samples.

Results

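Heat shock proteins and molecular chaperones are described here, as the rows of the RNAseq tables whose symbols start with HSPA, HSPB, HSPD, HSPE, HSPH, HSP90, DNAJA, DNAJB or DNAJC, together with TCP1, CCT2, CCT3, CCT4, CCT5, CCT6A, CCT7, CCT8 and HSF1. Of 28051 named genes, 95 matched and 61 remained. Left out were 7 with a hyphen in the symbol, 3 ending in P and a digit (DNAJA1P5, and HSPBAP1 and HSPBP1, which are coding genes), 4 that RefSeq lists as pseudogenes (HSPA7, HSP90AB4P, HSP90B2P and DNAJB3) and 20 with a mean below 10 scaled counts over the 12 libraries, among them HSPA1A and HSPA6. The 61 comprised 10 HSP70 and HSP110 genes, 3 HSP90 genes, 2 small heat shock genes, the 2 genes of the mitochondrial chaperonin, the 8 TRiC subunits, HSF1, and 3, 8 and 24 J proteins of families A, B and C.

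Molecular chaperones bind unfolded proteins and help them to fold, to assemble or to be degraded. HSP70 proteins hold short exposed stretches of a client, J proteins (the DNAJ families) deliver clients and start the HSP70 cycle, HSP110 proteins exchange its nucleotide, HSP90 acts on later folding states, and the chaperonins TRiC in the cytosol and HSPD1 with HSPE1 in mitochondria enclose a client in a chamber. Many of these genes are switched on by the transcription factor HSF1 through heat shock elements in their promoters, and the chaperones of the endoplasmic reticulum (ER) by the unfolded protein response through ER stress response elements.

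HL60 is an established human acute myeloid leukaemia line of promyelocytic type that matures towards neutrophils under all-trans retinoic acid (ATRA), and the study asked what loss of hexokinase 3 (HK3) changes in such cells. Cells labelled HK3-null, made with a lentiviral vector carrying Cas9, a guide RNA and a puromycin marker, were compared with control cells that express Cas9 (Cas9 control), each after 36 h in 1 µM ATRA or in 0.01% DMSO. RNAseq covered 3 biological replicates in each of these 4 groups, 12 libraries in all, and ATACseq, which measures accessible chromatin, 2 replicates in each. All titles of the knockout carry 1 line label, so its replicates cannot be taken as separate clones, and the p values measure the spread between these libraries only.

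RNA of HK3 itself did not fall in the knockout: its log2 fold change against Cas9 control was 1.96 in DMSO and 0.05 in ATRA (limma, adjusted p = 1.11e-05 and 0.836). A count over the whole gene cannot show whether the protein is made, so these are written as the libraries labelled HK3-null. The paper reports insertions or deletions at the cut site of its knockout clones. Its mass spectrometry counted no HK3 in pooled HL60 knockout clones after vitamin D treatment, while control cells had it. Which clone gave the libraries used here is not named there. Scaled counts, the unit of every RNA value here, are read counts that the authors scaled between libraries, and they summed to between 29053838 and 31548189 per library. Promyelocytic genes were present in all 12 libraries but not at an even level. MPO had 440811 to 661371 scaled counts, PRTN3 76693 to 104309, ELANE 10204 to 32680 and AZU1 8990 to 16331. CTSG had 11535 to 12456 in Cas9 control DMSO and 1728 to 2173 in Cas9 control ATRA. In the groups labelled HK3-null CTSG had 3407 to 3561 in DMSO and 648 to 785 in ATRA. Of 15 markers of T, B, erythroid, epithelial and fibroblast cells, MS4A1 was at 0 throughout, and the summed level was 74 to 509 in Cas9 control DMSO, 128 to 220 in Cas9 control ATRA, 76 to 93 in HK3-null DMSO and 139 to 168 in HK3-null ATRA. The value of 509 belonged to Cas9 control DMSO replicate 1, mostly from COL1A1, and its part in the results was not tested beyond leaving that library out. In bulk RNA, fewer cells of a type and less RNA per cell cannot be told apart.

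Genes are written as called where limma gave an adjusted p below 0.05 (Benjamini-Hochberg, over the 13256 genes tested) with a change of 1.5-fold or more, and as passing where only the p was met. All 61 chaperone genes were tested. Their abundance spanned several orders of magnitude. Per kilobase of canonical transcript, the mean level over the 12 libraries was highest for HSP90AB1 with 29606 scaled counts, followed by HSPA8 with 15527, HSP90AA1 with 13004, HSPD1 with 12318 and HSP90B1 with 10223, and lowest for HSPA1L with 10.2 and DNAJC18 with 10.3. HSP70, HSP90 and chaperonin genes have near-identical relatives and processed pseudogenes, and how the authors' counting divided such reads is not given in the sources used here, so the levels of HSPA1B, HSPA8, HSP90AA1, HSP90AB1, HSPD1 and HSPE1 are uncertain to that extent.

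Promoter sequence upstream of the start was taken for 55 of the 61 genes from RefSeq (GRCh38.p14), as the 250 bases before each listed start. The heat shock element was searched as GAA, any 2 bases, TTC, any 2 bases and GAA, and the ER stress response element as CCAAT, any 9 bases and CCACG, each on both strands. The latter contains a CCAAT box, which by itself was found in 43.6% of the 55 genes and 37% of all. HSPA8, HSP90AA1, HSP90AB1, DNAJB6 and HSPD1 held the first, 5 of 55 genes or 9.09%, against 0.557% of 27305 genes in the table. HSPA5 and HSP90B1 held the second, 2 of 55 genes or 3.64%, against 0.0916% of all genes. A match of letters is a description of the sequence, not a site shown to be bound in these cells. Only exact matches within the 250 bases were counted, so a gene or stretch without a match is not shown to lack the element. The 4 sequences below carry matches, in capitals and 5′ to 3′ on the strand of the gene, and belong to genes on which the ER comparison and the replicate pattern turn. They lie at chr9:125241344-125241593 (minus strand) for HSPA5, chr12:103930160-103930409 (plus) for HSP90B1, chr11:123062137-123062386 (minus) for HSPA8 and chr14:102087045-102087294 (minus) for HSP90AA1.
HSPA5: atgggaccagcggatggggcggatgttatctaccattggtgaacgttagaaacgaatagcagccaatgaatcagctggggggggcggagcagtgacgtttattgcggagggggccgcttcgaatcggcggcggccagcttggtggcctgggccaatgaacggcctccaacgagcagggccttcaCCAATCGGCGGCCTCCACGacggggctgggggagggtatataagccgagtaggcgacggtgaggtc
HSP90B1: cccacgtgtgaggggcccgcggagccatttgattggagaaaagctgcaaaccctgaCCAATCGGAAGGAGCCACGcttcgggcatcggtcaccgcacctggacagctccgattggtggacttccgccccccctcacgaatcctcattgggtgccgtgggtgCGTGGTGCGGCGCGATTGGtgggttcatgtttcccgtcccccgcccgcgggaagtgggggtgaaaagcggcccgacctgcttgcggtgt
HSPA8: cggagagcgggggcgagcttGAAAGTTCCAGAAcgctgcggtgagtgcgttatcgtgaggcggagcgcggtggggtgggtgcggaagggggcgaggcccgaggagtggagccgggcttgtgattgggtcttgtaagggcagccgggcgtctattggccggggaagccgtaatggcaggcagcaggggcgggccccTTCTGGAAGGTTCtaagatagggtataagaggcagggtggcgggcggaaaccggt
HSP90AA1: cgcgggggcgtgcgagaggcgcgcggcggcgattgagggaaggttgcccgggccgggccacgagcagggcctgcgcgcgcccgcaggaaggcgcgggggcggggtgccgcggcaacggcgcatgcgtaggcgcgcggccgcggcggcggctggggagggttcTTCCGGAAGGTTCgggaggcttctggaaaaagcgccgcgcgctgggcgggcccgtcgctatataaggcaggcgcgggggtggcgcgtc

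ATRA lowered more chaperone genes than it raised, in both genotypes. In Cas9 control cells, 11 of the 61 genes were called lower and 6 higher, where 7.79% of all tested genes were called lower and 11.2% higher. Among libraries labelled HK3-null, 18 were called lower and 6 higher, against 12.9% and 13.6% of all genes. By the adjusted p alone, 31 genes passed as lower in each genotype (21.3% and 25.1% of all genes), and 7 and 10 as higher (20.3% and 24%). Treated and untreated libraries did not overlap for 35 genes lower and 9 higher in Cas9 control (25.9% and 25.4% of all genes), and for 32 and 11 in the libraries labelled HK3-null (29% and 29.6%). The median log2 change of the 61 genes was −0.31 in Cas9 control and −0.26 in the libraries labelled HK3-null, while the median of all tested genes was 0.00 and 0.01. Called in both genotypes were 8 genes as lower and 6 as higher. Without Cas9 control DMSO replicate 1, 9 genes were called lower and 5 higher in Cas9 control, 12 lower and 6 higher between genotypes in DMSO, and 8 had an interaction, 6 positive and 2 negative. The shares of all genes called in both genotypes, and of those called without this library, were not computed. These counts are therefore a description only. The heat map shows each change by role.

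**Figure D1:**
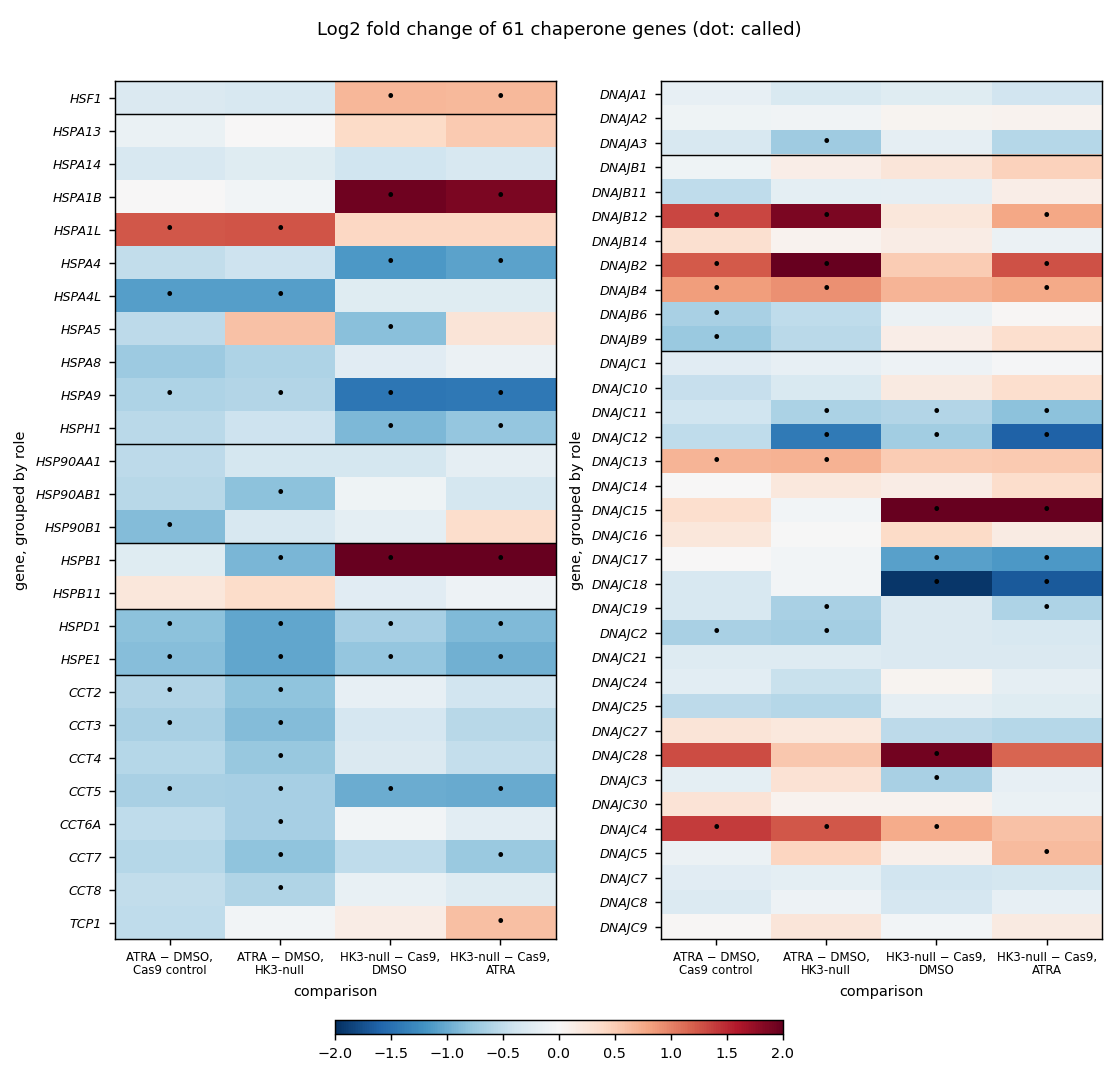
Log2 fold change (colour, blue lower and red higher, limited to −2 and 2) of the 61 chaperone genes in rows, grouped by role between the black lines, for the 4 comparisons in columns. A dot marks a called gene (adjusted p under 0.05 and at least 1.5-fold). The mitochondrial chaperonin genes HSPD1 and HSPE1 are blue with a dot in all 4 columns, and the 8 TRiC subunits are blue in the first column.

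TRiC folds actin, tubulin and other cytosolic proteins in a ring of 8 different subunits. All 8 passed as lower under ATRA in Cas9 control cells, with log2 fold changes from −0.65 to −0.49 and a median of −0.57, and CCT2, CCT3 and CCT5 were called. CCT2 lost its call for size when any 1 of 3 Cas9 control libraries was left out: −0.51 (ATRA replicate 3), −0.56 (DMSO replicate 1) and −0.55 (DMSO replicate 2). CCT3 scaled counts were 19729, 18596 and 17850 in Cas9 control DMSO and 13170, 11671 and 10987 in Cas9 control ATRA. The corresponding libraries labelled HK3-null had 15267, 15084 and 13930 in DMSO and 8872, 8384 and 7194 in ATRA. Treated and untreated libraries did not overlap in either genotype, and the log2 fold changes were −0.65 (standard error 0.09, adjusted p = 0.000118, limma) and −0.86 (adjusted p = 8.21e-06).

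The subunit TCP1 stood apart from the other 7 in the libraries labelled HK3-null. There, 7 subunits were called lower under ATRA, with a median over the 8 of −0.71 (CCT8 at −0.60, and −0.54 without HK3-null ATRA replicate 3). TCP1 had 20186, 19921 and 18683 scaled counts in DMSO and 20475, 19497 and 16817 in ATRA. These values overlap, and the log2 fold change was −0.05 (adjusted p = 0.656, limma). In Cas9 control cells the same gene fell from 18541, 17928 and 16481 to 14135, 11952 and 11406 scaled counts, without overlap (log2 fold change −0.50, adjusted p = 0.00106). The difference between the genotypes in its ATRA response was 0.45 on the log2 scale and missed the threshold (adjusted p = 0.0539, limma), while it passed with the replicate number as a block (adjusted p = 0.00123) and when the libraries were scaled to the same total (adjusted p = 0.0325). The other 7 had negative interaction values, none of which passed in the fit without the block. CCT3, CCT4 and CCT7 passed with the block (adjusted p = 0.0334, 0.0348 and 0.0421, limma), CCT4, CCT6A and CCT7 with equal totals, and 6 of the 7 with quantile normalization. TCP1 lies on chromosome 6, whose tested genes had a median genotype change of 0.57 in ATRA and a median interaction of 0.004.

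HSPD1 (HSP60) and HSPE1 (HSP10) form the mitochondrial chaperonin and its lid, and they are neighbours on chromosome 2 with opposed starts. The 104 bases between the starts, chr2:197500275-197500378 on the plus strand of GRCh38.p14, are printed because both genes can be read from them, and they held no match to either element (the match counted for HSPD1 lies outside them).
HSPD1-HSPE1 gap: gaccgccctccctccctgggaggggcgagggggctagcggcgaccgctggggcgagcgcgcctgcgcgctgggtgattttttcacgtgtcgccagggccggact

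HSPD1 was called lower under ATRA and lower in the libraries labelled HK3-null. Its scaled counts were 45368, 44583 and 42236 in Cas9 control DMSO, 27004, 24169 and 23881 in Cas9 control ATRA, 27875, 27444 and 28412 in HK3-null DMSO and 14233, 13571 and 13066 in HK3-null ATRA. Each ATRA group lay below its DMSO group without overlap, and each group labelled HK3-null below its Cas9 control. The ATRA response was −0.82 (adjusted p = 6.85e-07, limma) in Cas9 control and −1.03 (adjusted p = 6.08e-08) in the libraries labelled HK3-null, and the genotype change −0.66 (adjusted p = 1.91e-06) in DMSO and −0.88 (adjusted p = 1.65e-07) in ATRA. HSPE1 had 5096, 5395 and 4778 scaled counts in Cas9 control DMSO, 3224, 2793 and 2497 in Cas9 control ATRA, 2943, 2884 and 3076 in HK3-null DMSO and 1560, 1508 and 1293 in HK3-null ATRA. Its 4 log2 fold changes, in the same order, were −0.85, −1.03, −0.78 and −0.96, and all were called.

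Of 7 mitochondrial chaperone genes on a list (HSPA9, HSPD1, HSPE1, DNAJA3, DNAJC11, DNAJC15 and DNAJC19), 3 were called lower under ATRA in Cas9 control and 6 in the libraries labelled HK3-null (7.79% and 12.9% of all genes), and none higher in either. HSPA9 (mortalin) is the HSP70 of the mitochondrial matrix and of protein import. Its scaled counts fell under ATRA from 31490, 31097 and 28118 to 21637, 20105 and 17712 in Cas9 control and from 11560, 11249 and 10329 to 8093, 7816 and 6183 in the libraries labelled HK3-null. No library of either treated group reached its untreated group, and the log2 fold changes were −0.61 (adjusted p = 0.000706, limma) and −0.59 (adjusted p = 0.000616). The first lost its 1.5-fold call, at −0.53 and −0.58, without Cas9 control ATRA replicate 3 or Cas9 control DMSO replicate 1. The second lost it, at −0.47, −0.56 and −0.58, without HK3-null ATRA replicate 3 or DMSO replicates 1 or 2. DNAJC19 (TIM14), a J protein of the import motor, and DNAJC11, a protein of the mitochondrial membranes, were called lower under ATRA in the libraries labelled HK3-null, at −0.66 and −0.63, and passed below the fold threshold in Cas9 control, at −0.33 and −0.40.

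**Figure D2:**
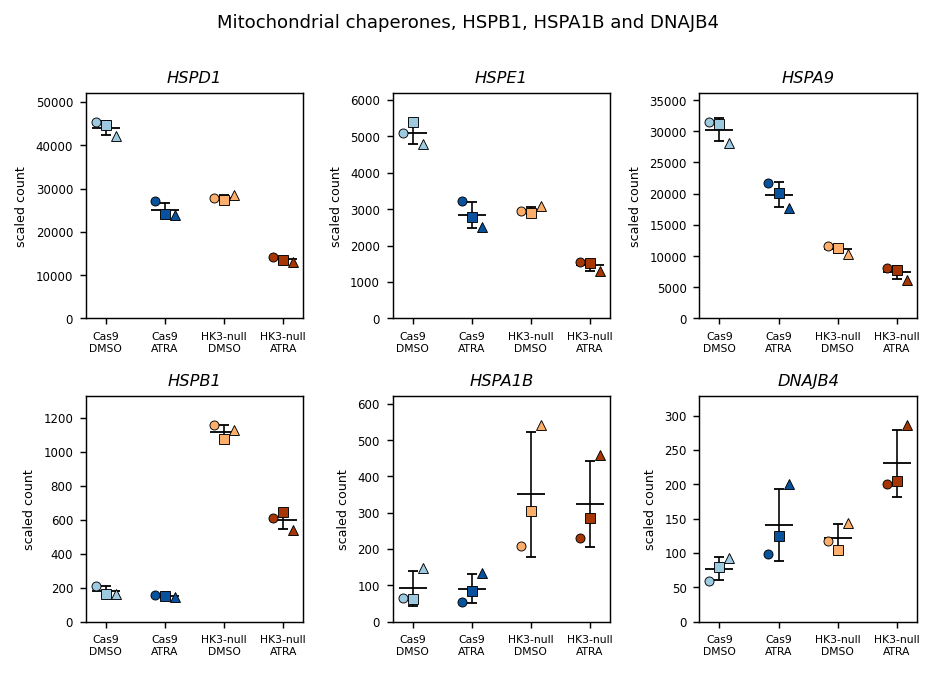
Scaled counts (linear axes from 0) of HSPD1, HSPE1, HSPA9, HSPB1, HSPA1B and DNAJB4 in each of the 12 libraries, with circles, squares and triangles for replicates 1, 2 and 3, black bars at the group mean and whiskers of 1 SD (n = 3). HSPD1 and HSPE1 are lowest in HK3-null ATRA, HSPB1 is far higher in both groups labelled HK3-null, and replicate 3 is the highest point for HSPA1B and DNAJB4 in every group.

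HSP90 in the cytosol matures kinases and steroid receptors. All 3 HSP90 genes passed as lower under ATRA in both genotypes. HSP90AB1, the constitutive form, had 98648, 97108 and 90460 scaled counts in Cas9 control DMSO, 71591, 65554 and 58567 in Cas9 control ATRA, 91438, 94282 and 85427 in HK3-null DMSO and 55967, 55266 and 43400 in HK3-null ATRA. ATRA libraries lay below DMSO libraries in each genotype, with log2 fold changes of −0.55 (adjusted p = 0.00116, limma) and −0.82 (adjusted p = 4.49e-05), and only the second reached 1.5-fold. HSP90AA1, the stress-inducible form, passed at −0.52 (adjusted p = 0.00122) and −0.35 (adjusted p = 0.0103) and was not called.

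Among the HSP110 genes, HSPA4L was lower under ATRA by more than the fold threshold in both genotypes. It had 984, 1005 and 1022 scaled counts in Cas9 control DMSO, 477, 442 and 491 in Cas9 control ATRA, 784, 862 and 910 in HK3-null DMSO and 386, 381 and 426 in HK3-null ATRA. The groups did not overlap and both log2 fold changes were −1.10 (adjusted p = 8.12e-07 and 4.72e-07, limma). HSPA4, its relative on chromosome 5, passed at −0.50 and −0.42 without reaching 1.5-fold. DNAJC2 (zuotin), a J protein on ribosomes, was called lower in both genotypes at −0.64 and −0.67, and DNAJB6, which holds back protein aggregation, at −0.65 in Cas9 control while its −0.51 in the libraries labelled HK3-null passed without the fold.

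The 6 genes called higher under ATRA in both genotypes were HSPA1L and 5 J proteins. DNAJB12, an ER membrane protein that recruits cytosolic HSP70 to membrane proteins, had 1896, 1862 and 1738 scaled counts in Cas9 control DMSO, 4479, 4926 and 4411 in Cas9 control ATRA, 2235, 2263 and 1936 in HK3-null DMSO and 8074, 8529 and 7077 in HK3-null ATRA. Every treated library lay far above every untreated library of its genotype, with log2 fold changes of 1.33 (standard error 0.08, adjusted p = 3.13e-07, limma) and 1.88 (adjusted p = 1.18e-08). DNAJC4 went from 281, 290 and 273 to 709, 759 and 747 scaled counts in Cas9 control and from 453, 491 and 467 to 1118, 1105 and 1097 in the libraries labelled HK3-null. Its groups were also apart, at 1.39 (adjusted p = 2.07e-08) and 1.24 (adjusted p = 3.56e-08).

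DNAJB2, a J protein that binds ubiquitin chains, rose from 115, 79 and 128 to 185, 225 and 361 scaled counts in Cas9 control and from 143, 139 and 170 to 528, 539 and 754 in the libraries labelled HK3-null. Treated and untreated libraries did not overlap, at log2 fold changes of 1.23 (adjusted p = 0.0025, limma) and 1.996 (adjusted p = 5.69e-05). DNAJC13 (RME-8), which acts on endosomes, was called at 0.67 and 0.69, but without replicate 3 of the ATRA group it fell to 0.54 in either genotype, under the fold threshold. HSPA1L, a seldom expressed HSP70 next to HSPA1A and HSPA1B, had only 13 to 17 scaled counts in Cas9 control DMSO and 29 to 38 in Cas9 control ATRA, and 16 to 21 and 39 to 49 in the groups labelled HK3-null, with log2 fold changes of 1.25 (adjusted p = 0.00114) and 1.26 (adjusted p = 0.000785). DNAJB4 was called at 0.83 (adjusted p = 0.0269) in Cas9 control and 0.91 (adjusted p = 0.0147) in the libraries labelled HK3-null. That call was lost without Cas9 control ATRA replicate 3 or DMSO replicates 1 or 2 (adjusted p = 0.103, 0.103 and 0.0553). For HK3-null it was lost without ATRA replicate 3 or DMSO replicate 2 (adjusted p = 0.0602 and 0.0567).

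The ATRA response differed between the genotypes for 10 of the 61 genes by the interaction of genotype and treatment, where 9.12% of all tested genes passed that test. A positive interaction, meaning a higher log2 change under ATRA in the libraries labelled HK3-null than in Cas9 control, was found for HSPA5, HSP90B1, DNAJB11, DNAJC3, DNAJB12 and DNAJC5, and a negative one for DNAJC11, DNAJC12, DNAJC19 and HSPB1. These are 6 and 4 genes, against 4.48% and 4.64% of all genes. The split moved with the scaling, to 5 positive and 11 negative under quantile normalization, 5 and 8 with equal totals and 6 and 10 with voom weights. With the replicate number as a block 19 genes passed, 9 positive and 10 negative, adding TCP1, DNAJB2, DNAJC9, HSP90AB1, DNAJA3, CCT3, CCT4, CCT7 and HSPD1. The share of all genes that passed with the block or these scalings was not computed. The 9.12% belongs to the fit without them, so these counts cannot be read against it.

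Of 8 ER chaperone genes on a list, 4 had a positive interaction and none a negative one (4.48% and 4.64% of all genes). The list was written with earlier results of these data known. All 8 interaction values were above 0, from 0.07 to 1.10 with a median of 0.25 (median of all genes −0.01). HSPA5 (BiP), the HSP70 of the ER and a main target of the unfolded protein response, moved in opposite directions. Its scaled counts were 31564, 32576 and 34369 in Cas9 control DMSO and 22090, 22749 and 23815 in Cas9 control ATRA. In HK3-null DMSO they were 19418, 17981 and 17523, and in HK3-null ATRA 27924, 26573 and 27459. All treated Cas9 control libraries lay below the untreated Cas9 control libraries. All treated libraries labelled HK3-null lay above the untreated libraries of the same label. The log2 fold changes were −0.52 (adjusted p = 1.68e-05, limma) and 0.58 (adjusted p = 4.19e-06), with an interaction of 1.10 (standard error 0.08, adjusted p = 7.27e-06). Between genotypes HSPA5 was called lower in DMSO at −0.84 (adjusted p = 1.65e-07) and passed as higher in ATRA at 0.26 (adjusted p = 0.00147).

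HSP90B1 (GRP94) is the HSP90 of the ER lumen. It had 36634, 37795 and 35047 scaled counts in Cas9 control DMSO, 21009, 19049 and 19928 in Cas9 control ATRA, 33090, 31654 and 30519 in HK3-null DMSO and 27091, 25556 and 23896 in HK3-null ATRA. ATRA groups lay below DMSO groups in both genotypes, by 0.87 and 0.32 on the log2 scale, and the interaction was 0.55 (adjusted p = 0.00175, limma). The promoters of HSPA5 and HSP90B1 are the pair printed above with ER stress response elements.

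DNAJB11 (ERdj3) delivers clients to HSPA5 in the ER lumen. It had 3357, 3550 and 3454 scaled counts in Cas9 control DMSO, 2500, 2398 and 2421 in Cas9 control ATRA, 3145, 3065 and 2955 in HK3-null DMSO and 2703, 2708 and 2572 in HK3-null ATRA. The treated libraries were below the untreated ones in each genotype, at −0.50 and −0.20, with an interaction of 0.30 (adjusted p = 0.0131, limma). DNAJC3 (p58IPK) is another J protein of HSPA5 and had 2501, 2553 and 2999 scaled counts in Cas9 control DMSO, 2369, 2192 and 2439 in Cas9 control ATRA, 1751, 1657 and 1687 in HK3-null DMSO and 2176, 1968 and 2078 in HK3-null ATRA. Treated libraries labelled HK3-null lay above the untreated ones, at 0.29 (adjusted p = 0.00735), the Cas9 control value of −0.20 missed the threshold (adjusted p = 0.0509, and 0.0139 with the replicate block), and the interaction was 0.49 (adjusted p = 0.0141). Scaling to equal totals or voom weights moved that adjusted p to 0.0535 and 0.0553, and under either 1 of the 8 interaction values was below 0. For the other 4 genes, HSPA13, DNAJB9, DNAJC1 and DNAJC10, the interaction values of 0.07 to 0.20 did not pass (adjusted p from 0.45 to 0.836).

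**Figure D3:**
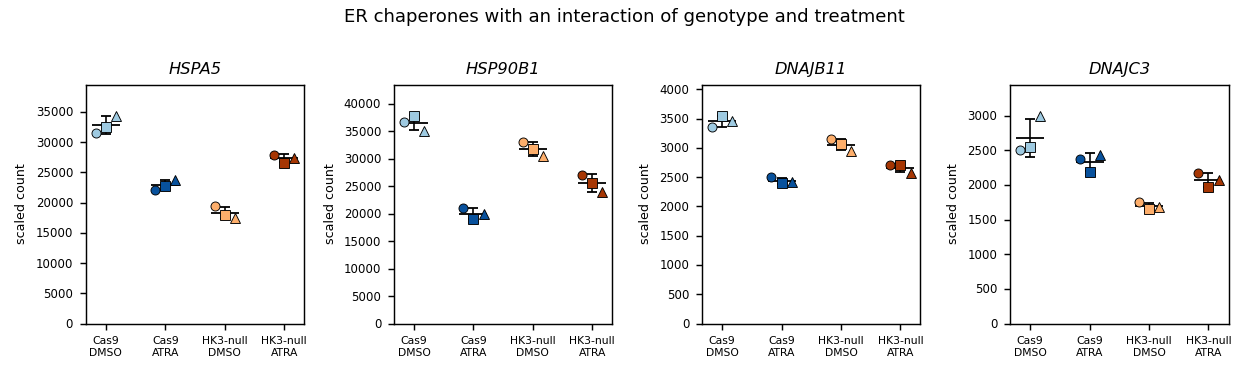
Scaled counts (linear axes from 0) of HSPA5, HSP90B1, DNAJB11 and DNAJC3 in the 12 libraries, with circles, squares and triangles for replicates 1, 2 and 3, black bars at the group mean and whiskers of 1 SD (n = 3). HSPA5 goes down under ATRA in Cas9 control and up in the libraries labelled HK3-null, and HSP90B1 and DNAJB11 go down less in the latter.

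A list of 22 other ER folding and unfolded protein response genes holds no member of the 61. It was likewise written with earlier results known. It gave 5 positive interactions (SDF2L1, PDIA3, PDIA4, P4HB and CRELD2) and no negative one, with a median of 0.27. Of all genes, 4.48% had a positive and 4.64% a negative interaction. Under ATRA 9 of the 22 were called lower in Cas9 control and none higher (7.79% and 11.2% of all genes). In the libraries labelled HK3-null 3 were called lower and 1 higher (12.9% and 13.6% of all genes), and the difference between these counts was not tested. SDF2L1, an ER partner of HSPA5, fell by 1.02 on the log2 scale in Cas9 control and by 0.41 in the libraries labelled HK3-null (interaction 0.61, adjusted p = 0.00715, limma). CALR (calreticulin) was called lower in both, at −1.32 and −1.44, and TRIB3 at −1.37 and −1.53, with interactions that did not pass (adjusted p = 0.589 and 0.747). DDIT3 (CHOP), a transcription factor of prolonged ER stress, was the gene called higher in the libraries labelled HK3-null, at 0.84, and its 0.54 in Cas9 control passed without the fold.

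DNAJB12, which was not on the list of 8, also gave a positive interaction, 0.55 (adjusted p = 0.0131, limma), as its rise was larger in the libraries labelled HK3-null. DNAJC5, the cysteine string protein of secretory vesicles, had 4878, 4737 and 5442 scaled counts in Cas9 control DMSO, 4065, 4857 and 4934 in Cas9 control ATRA, 5174, 5285 and 5597 in HK3-null DMSO and 6732, 7349 and 7454 in HK3-null ATRA. The Cas9 control groups overlapped and the treated libraries labelled HK3-null stood above all others, with an interaction of 0.55 (adjusted p = 0.012). Its adjusted p was 0.078 under quantile normalization and 0.0551 with equal totals.

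DNAJC12, a partner of the aromatic amino acid hydroxylases, gave the largest negative interaction of the 61 genes, −0.91 (standard error 0.15, adjusted p = 0.00302, limma). It had 1227, 1241 and 1177 scaled counts in Cas9 control DMSO, 904, 844 and 820 in Cas9 control ATRA, 746, 757 and 740 in HK3-null DMSO and 311, 309 and 228 in HK3-null ATRA. No groups overlapped, and the ATRA response was −0.51 in Cas9 control and −1.42 in the libraries labelled HK3-null. The interactions of DNAJC11 (−0.23, adjusted p = 0.0318, limma), DNAJC19 (−0.33, adjusted p = 0.0379) and HSPB1 (−0.67, adjusted p = 0.0249) were weaker. Each missed the threshold when any of several libraries was left out, with adjusted p up to 0.0785, 0.0999 and 0.0673. Among those fits DNAJC19 passed only in that without Cas9 control ATRA replicate 3. With chromosome medians subtracted DNAJC19 had an adjusted p of 0.05655, and under quantile normalization HSPB1 had 0.105 (limma).

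Between genotypes in DMSO, 12 of the 61 genes were called lower and 6 higher under the HK3-null label, where 14.7% of all tested genes were called lower and 17.4% higher. In ATRA 12 were called lower and 9 higher, against 17.6% and 18.8% of all genes, and the split became 15 and 7 under quantile normalization or equal totals. By the adjusted p alone, 26 passed as lower and 9 as higher in DMSO (27.1% and 27.9% of all genes), and 25 and 18 in ATRA (29.5% and 29.6%). The genotypes did not overlap for 29 genes lower and 13 higher in DMSO (31.9% and 31.8%), and for 28 and 18 in ATRA (31.2% and 32.2%). As shares of the 61 genes, the calls were 19.7% lower and 9.84% higher in DMSO and 19.7% lower and 14.8% higher in ATRA. Called in both treatments were HSPB1, HSPA1B, DNAJC15 and HSF1 as higher and HSPA4, HSPA9, HSPH1, HSPD1, HSPE1, CCT5, DNAJC11, DNAJC12, DNAJC17 and DNAJC18 as lower.

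The median RNA change of several chromosomes differed from that of all tested genes, and this bears on many of these genes. A single median was taken for each chromosome, and parts of chromosomes were not examined. Subtracting that median assumes the same shift for every gene of the chromosome. In DMSO the median log2 genotype change of all tested genes was −0.75 on chromosome 5, 0.52 on chromosome 6, 1.10 on chromosome 8, −0.57 on chromosome 13 and −0.94 on chromosome 15, and in ATRA −0.78, 0.57, 1.06, −0.57 and −0.97. Copy number was not measured in the data used here. Of the 14 chaperone genes on these 5 chromosomes, 10 were called in DMSO, 3 higher and 7 lower, and of the 47 on other chromosomes 8 were, 3 higher and 5 lower. Of all tested genes, 62% were called in DMSO on these 5 chromosomes (29.1% higher and 32.8% lower) and 25.5% on the others (14.9% and 10.6%). With the median of each chromosome subtracted, HSPA9 kept −0.70 in DMSO and −0.65 in ATRA (adjusted p = 0.000206 and 0.000269, limma). HSPH1 was left at −0.34 and −0.21 (adjusted p = 0.23 and 0.442) and DNAJC17 at −0.15 and −0.18 (adjusted p = 0.325 and 0.221), and their calls were lost.

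**Figure D4:**
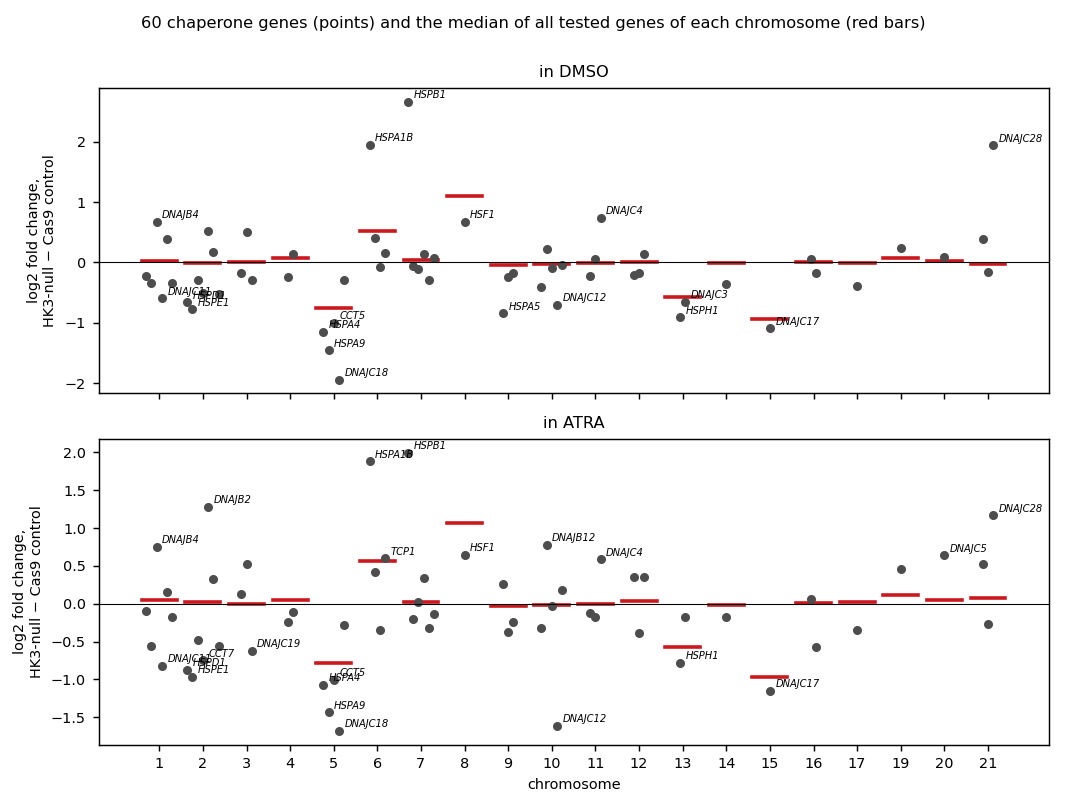
Log2 fold change of HK3-null against Cas9 control in DMSO (top) and in ATRA (bottom) for 60 chaperone genes (points, placed by chromosome; DNAJC15 is left out for its counts near 0), with red bars at the median of all tested genes of the chromosome. Names are shown beyond 0.58 in either direction. HSF1 lies below the bar of chromosome 8 and DNAJC17 beside that of chromosome 15, whereas HSPB1, HSPA1B, HSPA5, HSPD1 and HSPE1 stand away from their bars.

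HSF1, the main activator of heat shock genes, was called higher in the libraries labelled HK3-null and lies on chromosome 8. It had 1735, 1607 and 1741 scaled counts in Cas9 control DMSO, 1445, 1348 and 1361 in Cas9 control ATRA, 2969, 2738 and 2408 in HK3-null DMSO and 2246, 2174 and 2075 in HK3-null ATRA. The genotypes did not overlap in either treatment (log2 fold changes 0.67 and 0.64, adjusted p = 1.57e-05 and 1.82e-05, limma). With the median of chromosome 8 subtracted it had −0.42 in both treatments (adjusted p = 0.000659 and 0.000628, limma). Under ATRA it passed as lower in both genotypes at −0.29 and −0.32.

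HSPB1 (HSP27), a small heat shock protein that holds unfolded clients without ATP, was higher in the libraries labelled HK3-null by the largest margin among genes with sizeable counts in every group. Its scaled counts were 212, 164 and 160 in Cas9 control DMSO, 157, 148 and 145 in Cas9 control ATRA, 1156, 1074 and 1125 in HK3-null DMSO and 609, 645 and 538 in HK3-null ATRA. The genotypes were far apart in both treatments, with log2 fold changes of 2.66 (standard error 0.11, adjusted p = 9.19e-09, limma) and 1.99 (adjusted p = 7.11e-08), or 6.31-fold and 3.97-fold. ATRA lowered it in the libraries labelled HK3-null, at −0.91 (adjusted p = 5.13e-05), while the −0.24 in Cas9 control did not pass (adjusted p = 0.114) and did with the replicate block (adjusted p = 0.0456). Chromosome 7, where it lies, had a median of 0.03 in either treatment.

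HSPA1B, the stress-inducible cytosolic HSP70, had 65, 62 and 147 scaled counts in Cas9 control DMSO, 53, 85 and 133 in Cas9 control ATRA, 207, 304 and 541 in HK3-null DMSO and 229, 286 and 458 in HK3-null ATRA. Every library labelled HK3-null exceeded every Cas9 control library of its treatment, at log2 fold changes of 1.95 (standard error 0.46, adjusted p = 0.00376, limma) and 1.88 (adjusted p = 0.00413), and with the median of chromosome 6 subtracted 1.43 and 1.31 (adjusted p = 0.0227 and 0.0297). Its near-identical neighbour HSPA1A had at most 22 scaled counts in any library. ATRA did not move HSPA1B past the threshold in either genotype (adjusted p = 0.997 and 0.929), and these groups overlapped. Of 9 stress-inducible genes on a list, among them HSPA1B, HSPB1, HSPH1, HSPD1 and HSPE1, 2 were called higher and 3 lower in the libraries labelled HK3-null in each treatment (17.4% and 14.7% of all genes in DMSO, 18.8% and 17.6% in ATRA).

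DNAJC15 (MCJ), a J protein of the mitochondrial inner membrane, was nearly absent from Cas9 control libraries. They held 2, 1 and 0 scaled counts in DMSO and 0, 1 and 4 in ATRA, and the libraries labelled HK3-null 644, 610 and 609 in DMSO and 621, 621 and 553 in ATRA. The ratio of summed scaled counts was 621 in DMSO (95% interval 212.2 to 3014) and 359 in ATRA (153.5 to 1107). These intervals come from an exact method that takes scaled counts as read counts, so they are approximate and cover counting error only. DNAJC15 passed the filters on low values through its level in the libraries labelled HK3-null alone. Its ratios and genotype calls are therefore a description and not independent of how the gene was admitted. Chromosome 13, on which DNAJC15 lies, had a median genotype change of −0.57 in each treatment.

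Genes called lower in both treatments included DNAJC18, HSPA9, HSPA4 and CCT5 on chromosome 5, and HSPD1, HSPE1, DNAJC11 and DNAJC12 on chromosomes 1, 2 and 10, whose medians were within 0.05 of 0. DNAJC11 had −0.59 in DMSO and went under the fold threshold, to −0.57 and −0.58, without Cas9 control DMSO replicate 3 or HK3-null DMSO replicate 2. DNAJC18 had 88, 90 and 92 scaled counts in Cas9 control DMSO and 24, 27 and 20 in HK3-null DMSO, and 58, 71 and 92 against 24, 22 and 22 in ATRA. Its log2 fold changes of −1.94 and −1.68 kept −1.18 and −0.90 after subtraction of the chromosome median (adjusted p = 0.000542 and 0.00289, limma). HSPA4, an HSP110 protein, had 7482, 7365 and 7109 scaled counts in Cas9 control DMSO and 3197, 3396 and 3302 in HK3-null DMSO, and 5419, 5016 and 5134 against 2479, 2428 and 2507 in ATRA. Its −1.15 and −1.07 became −0.40 and −0.29 on subtraction. CCT5 had 39128, 38182 and 35042 scaled counts in Cas9 control DMSO and 19006, 19160 and 18175 in HK3-null DMSO, and its −0.99 and −1.01 became −0.24 and −0.23.

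Some J proteins were called between genotypes in 1 treatment. DNAJC28 was called higher in DMSO at 1.94 (adjusted p = 0.011, limma) on only 3, 5 and 10 against 15, 17 and 33 scaled counts, and its 1.17 in ATRA missed the threshold (adjusted p = 0.088) except with the replicate block (adjusted p = 0.0063), which also called its ATRA response of 1.31 in Cas9 control (adjusted p = 0.00459 against 0.0789). DNAJB2 and DNAJB12 were called higher in ATRA, at 1.28 and 0.77, with 0.51 (adjusted p = 0.109) and 0.22 (adjusted p = 0.0381) in DMSO. DNAJB4 was called in ATRA at 0.75 (adjusted p = 0.0304) although its groups overlapped, and the call was lost without Cas9 control ATRA replicates 1 or 2 or HK3-null ATRA replicate 3 (adjusted p = 0.124, 0.0859 and 0.112). Its 0.68 in DMSO was called with the replicate block alone (adjusted p = 0.00217 against 0.0507). TCP1 was called higher in ATRA at 0.60, and this went under the fold threshold, to between 0.54 and 0.58, without Cas9 control ATRA replicates 2 or 3 or HK3-null ATRA replicates 1 or 2. Chromosome 6, on which TCP1 lies, had a median of 0.57 in ATRA. With chromosome medians subtracted, no TRiC subunit passed as higher in ATRA.

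Of 40 cochaperone genes on a list outside the 61, 8 were called lower under ATRA in Cas9 control and none higher (7.79% and 11.2% of all genes), and 12 lower and 1 higher in the libraries labelled HK3-null (12.9% and 13.6%). FKBP4, an HSP90 partner that binds steroid receptor complexes, was called lower in both genotypes at −1.44 and −1.90, and TRAP1, the mitochondrial HSP90, at −0.69 and −1.32, with interactions of −0.46 (adjusted p = 0.0275, limma) and −0.63 (adjusted p = 0.000886). Between genotypes 6 were called lower and 4 higher in DMSO (14.7% and 17.4% of all genes), and 7 lower and 4 higher in ATRA (17.6% and 18.8%). BAG3, a stress-inducible HSP70 partner, was called higher in ATRA at 2.02 (adjusted p = 0.0258), with an adjusted p of up to 0.0935 when 1 library was left out.

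Within every group, replicate 3 stood apart from the other two in many chaperone genes. The value was highest in replicate 3 of all 4 groups for 13 of the 61 genes, where this held for 12.7% of all tested genes, and lowest in all 4 for 17, where it held for 16.2%. The 13 were HSPA1B, HSPA8, HSPH1, HSPA4L, DNAJA1, DNAJA3, DNAJB1, DNAJB2, DNAJB4, DNAJC5, DNAJC13, DNAJC14 and DNAJC28. All 8 TRiC subunits, HSP90AA1, HSP90AB1 and HSPA9 were among the 17. HSPA8, the constitutive cytosolic HSP70, had 37544, 38525 and 64383 scaled counts in Cas9 control DMSO, 22882, 23689 and 37795 in Cas9 control ATRA, 32326, 34668 and 51747 in HK3-null DMSO and 20221, 21710 and 36351 in HK3-null ATRA. Replicate 3 was the outlying value each time, at 1.55 to 1.73 times the mean of replicates 1 and 2. HSP90AA1, with a heat shock element in its promoter as in that of HSPA8, had a ratio of 0.842 to 0.92 instead.

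**Figure D5:**
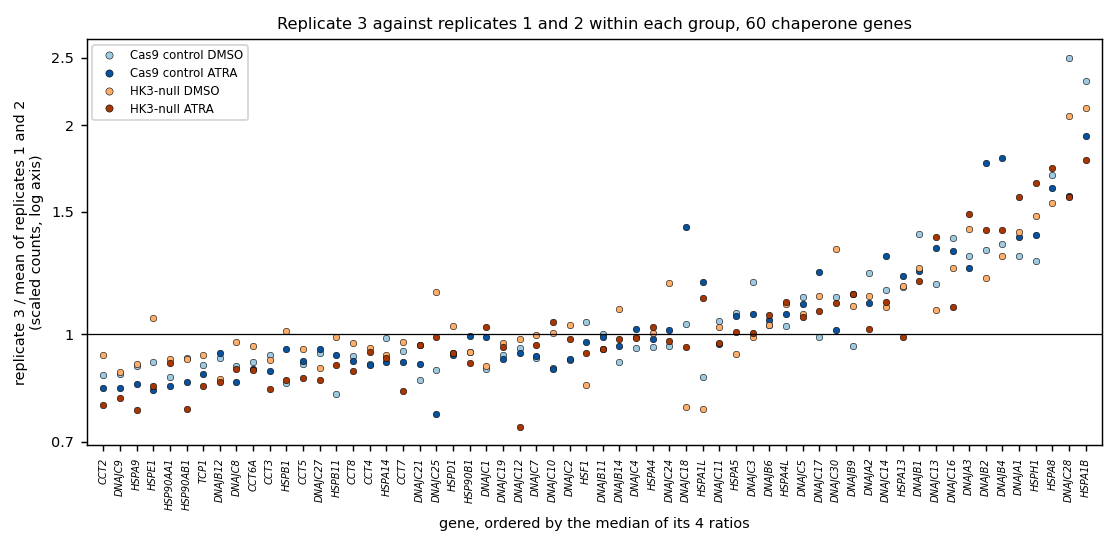
Scaled count of replicate 3 divided by the mean of replicates 1 and 2 (log axis) for 60 chaperone genes in order of their median ratio, with 1 point for each of the 4 groups (DNAJC15 left out for its counts near 0). HSPA1B, HSPA8 and HSPH1 lie above 1 in all groups, the former at 1.78 to 2.32, and the TRiC subunits lie below 1.

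This spread set what could be called for the same genes. HSPA8 had ATRA responses of −0.73 in Cas9 control and −0.62 in the libraries labelled HK3-null that did not pass (adjusted p = 0.0675 and 0.102, limma) and were called with the replicate block (adjusted p = 2.77e-07 and 4.73e-07). HSPH1 (HSP105) had −0.53 and −0.41 (adjusted p = 0.0763 and 0.154), which passed with the block (adjusted p = 7.02e-05 and 0.000362). Its genotype changes of −0.91 in DMSO and −0.78 in ATRA were called without it. What set replicate 3 apart was not tested. The shift was in the same direction in all 4 groups.

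In chromatin, 15 of the 8286 deposited ATACseq regions list a chaperone gene, for 14 genes. The deposited regions were chosen on a difference of at least 1.5-fold between genotypes in ATRA, so their ATRA values are a description, and the test used DMSO. The DMSO libraries compare the same genotypes, so that test is not independent of the choice of regions. The p values given below for single regions are therefore a description as well. Of the 14 regions tested, 8 were called more accessible and 6 less in the libraries labelled HK3-null (limma on log2 of signal plus 1), against 42.7% and 43.9% of all 6214 regions tested, so that 86.6% of regions passed and the count says little of these genes. Signal is the fragment density that the authors gave for each region, and its depth is unknown.

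The regions of DNAJC15, HSPB1 and HSPA1B went the way of their RNA. A region at chr13:43023416-43024024 (GRCh38) holds the RefSeq start of DNAJC15, and the 250 bases before that start, chr13:43023336-43023585 on the plus strand, are printed with the bases inside the region in capitals.
DNAJC15: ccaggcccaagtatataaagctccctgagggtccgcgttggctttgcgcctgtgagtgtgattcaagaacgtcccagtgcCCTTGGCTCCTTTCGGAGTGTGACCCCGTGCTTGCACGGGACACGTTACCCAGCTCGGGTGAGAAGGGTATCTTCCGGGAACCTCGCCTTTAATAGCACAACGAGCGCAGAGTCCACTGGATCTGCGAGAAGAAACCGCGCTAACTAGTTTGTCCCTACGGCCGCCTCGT

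The signal at DNAJC15 was 3.95 and 3.11 in Cas9 control DMSO, 4.11 and 5.95 in Cas9 control ATRA, 42.5 and 41.5 in HK3-null DMSO and 37.5 and 39.2 in HK3-null ATRA. The genotypes were far apart, with a log2 difference of 3.25 between the DMSO groups (standard error 0.42, adjusted p = 3.29e-08, limma). This region passed the filter on mean signal (above 17.1) through the libraries labelled HK3-null alone. Its test is therefore a description, as for the RNA of DNAJC15. HSPB1 had a pair of regions. That at chr7:76302356-76302890 over its start had a signal of 12.8 and 10.7 in Cas9 control DMSO and 60.5 and 48.1 in HK3-null DMSO, and that at chr7:76303381-76303880 within the gene 47.5 and 47.5 against 123.4 and 111.6. Both were called, at 2.11 (adjusted p = 4.42e-06) and 1.29 (adjusted p = 0.000194). The region over the start had Cas9 control means below the filter, 11.76 in DMSO and 14.65 in ATRA. It was admitted through the libraries labelled HK3-null, so its test is a description too. The region over the start of HSPA1B, chr6:31826979-31827939, which also lists HSPA1L, had 187.2 and 200 in Cas9 control DMSO and 562.7 and 580.8 in HK3-null DMSO, at 1.56 (adjusted p = 9.30e-06).

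Some other regions went with the RNA and some did not. DNAJA3 (Tid1), a mitochondrial J protein, was listed for a region at chr16:4465832-4466552, 9.06 kb beyond the end of the gene in GENCODE, with a signal of 30.6 and 22.3 in Cas9 control DMSO and 217.3 and 215 in HK3-null DMSO, a log2 fold change of 3.00 (adjusted p = 1.82e-10, limma), while its RNA change of −0.18 in DMSO did not pass (adjusted p = 0.435) and that of −0.58 in ATRA passed as lower. DNAJB12 was listed for a region at chr10:72328774-72329158, 3.67 kb beyond its end, with 96.1 and 101.8 in Cas9 control DMSO and 44.4 and 43.4 in HK3-null DMSO, at −1.15 (adjusted p = 0.000722), while its RNA passed as higher. HSP90AB1 was listed for a region 9.58 kb beyond its end that was called more accessible at 1.28, with an RNA change of −0.08 that did not pass (adjusted p = 0.538). Less accessible regions lay within DNAJC11 (−2.13), DNAJC17 (−1.48) and DNAJC3 (−1.49) and 7.2 kb before CCT7 (−1.57), genes whose RNA passed as lower in DMSO. The region before CCT7 passed the signal filter through the Cas9 control libraries alone. Another lay 4.16 kb beyond DNAJA1 (−2.49), whose RNA change of −0.24 did not pass. The 2 regions of HSF1, whose RNA was called higher, over its start and 9.4 kb beyond its end, were more accessible, at 1.45 and 0.95. HSF1, HSPA1B with HSP90AB1, DNAJC17, and DNAJC3 with DNAJC15 lie on chromosomes 8, 6, 15 and 13. The median RNA change of all tested genes there was 1.10, 0.52, −0.94 and −0.57 in DMSO. No chromosome median was subtracted from the ATACseq values, and the part of such shifts in them was not tested. DNAJC24 had a region below the signal filter, which was not tested.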

How the data were processed

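HL60 cells of 2 genotypes and 2 treatments were profiled by RNAseq (12 libraries) and ATACseq (8 libraries), grouped by their labels. The authors deposited RNAseq values as log2 of normalized counts. Their methods speak of RPKM, but raising 2 to the deposited value gave whole numbers (within a relative distance of 3.5e-05) with no scaling by gene length visible, and 0 was written as log2 of 0.001. These whole numbers are the scaled counts printed here. The ATACseq signal deposited by the authors is a fragment density in merged MACS2 peaks on GRCh38, and all 8286 regions differed at least 1.5-fold between genotypes in ATRA. The submitters' processing notes name DESeq2 and MACS2, with no version stated in the sources used here.

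The RNAseq values were fitted with limma 3.58.1 (R 4.3.3) in 1 model of 4 group means, over the 13256 genes that exceeded a log2 value of 3 as the mean of any group. The interaction was called on the adjusted p alone. ATACseq was fitted as log2(signal + 1) over the 6214 regions whose mean signal exceeded 17.1 (the 25th percentile). Tables and figures were made with Python 3.11.15, pandas 2.3.3, numpy 2.4.6 and scipy 1.17.1. The scripts were tested on simulated data. Rows without a gene name, 330 per table and at most 0.00926% of the counts, were left out.

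Replicate numbers come from the titles. Deviations from the group means correlated at 0.16 to 0.618 in all 18 pairs of libraries with the same number and at −0.634 to 0.283 in the 36 others, across 10667 genes averaging 50 scaled counts or more. The numbers were therefore taken to pair the libraries, and fits with the replicate number as a block are given where they change a call. All other counts and p values come from the fit without the block, which ignores this pairing. The other alternatives were quantile normalization, equal totals, voom weights, log2(scaled count + 1), no filter on low values, other fold thresholds, subtraction of each chromosome's median and leaving out each library.

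The members and gene lists were chosen with earlier results of these data known. HSP70, HSP90, small heat shock and chaperonin genes and HSF1 could be named freely, J proteins where they were among the 6 largest called changes of a comparison without overlap, were on a list or passed the interaction, and other genes for the 3 largest called changes of a list. DNAJB6, DNAJC2, DNAJC9, DNAJC14, DNAJC24, PDIA4, P4HB and CRELD2 fall outside this rule and were named after their values were seen. Depth before scaling, estimated from the size of 1 read, was 22700000 to 37000000 counts per RNAseq library. Precision is limited by 3 libraries per RNAseq group and 2 per ATACseq group.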

Additional observations from a re-analysis of the deposited data

Results flagged for a closer look

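The results listed here are the 10 chaperone genes whose ATRA response differed between the genotypes in a test of the difference itself. That test was the limma interaction of genotype and treatment over 12 libraries, without the replicate block. With the block more genes passed, and these 10 still did. The interaction is the log2 fold change under ATRA in the libraries labelled HK3-null minus that in Cas9 control. It was 1.10 for HSPA5, 0.55 for HSP90B1, 0.30 for DNAJB11 and 0.49 for DNAJC3, all on the list of ER chaperones. DNAJB12 and DNAJC5 each had 0.55. Negative values were found for DNAJC12 with −0.91, HSPB1 with −0.67, DNAJC19 with −0.33 and DNAJC11 with −0.23. HSPB1, DNAJC19 and DNAJC11 missed the threshold when any of several single libraries was left out. HSPB1, DNAJC19, DNAJC3 and DNAJC5 missed it under some alternative scaling or with chromosome medians subtracted. HSPA5 passed with opposite signs in the 2 genotypes, and with the replicate block DNAJC3 did as well. With 3 libraries per group, Dixon's test for a single outlying library was not run.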

How the results depend on the processing

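The counts of called chaperone genes kept within 1.5 times their value under every alternative except the other fold thresholds and, for the interaction, quantile normalization, voom weights and the replicate block. In the order ATRA in Cas9 control, ATRA in HK3-null, genotype in DMSO and genotype in ATRA, a threshold of 2-fold left 5, 8, 8 and 10 genes and no fold threshold gave 38, 41, 35 and 43. Genes with an interaction numbered 16 with quantile normalization, 16 with voom weights and 19 with the replicate block. Shares of all tested genes were not computed for the 2-fold threshold, the other scalings, the block or the fits with a library left out. The replicate block gave 19, 25, 19 and 22 called genes and 14 accessible regions, and lost no call. Leaving out 1 library at a time gave 14 to 23, 22 to 25, 18 to 19 and 19 to 25 genes, 7 to 10 interactions and 13 to 14 regions. The genotype change of CCT6A in DMSO was 0.10 with quantile normalization. With the chromosome median subtracted, DNAJC3 in ATRA was 0.40, HSF1 −0.42 in both treatments and TCP1 in DMSO −0.37, each opposite in sign to its unsubtracted value, by construction of that subtraction. DNAJC28, HSPA1L and DNAJC18 rest on few counts, and the depth of the ATACseq signal is unknown.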
